A study of Mus musculus with 4 samples.

Results

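The collagens and stromal matrix genes described here are 57 of the 18825 genes in a count table of aortic myeloid cells. They were chosen by name: all 44 collagen chains in the table, and 13 further genes, namely Dcn, Lum, Bgn, Fbn1, Fbln1, Fbln2, Eln, Sparc, Mgp, Serping1, Pcolce, Tgfbi and Vcan. No measured value entered the choice of the chains by symbol, but the set was proposed with results of these data known. The cells came from 1 group of animals, Apoe-/- mice, which lack apolipoprotein E and develop atherosclerosis. All mice had received a western diet for 13 weeks, and live CD45+ cells, that is leukocytes, were sorted from their aortas and sequenced with the 10x Genomics 3' method. There was no wild-type or chow-fed group, so no comparison with healthy aorta was possible. The series text gives 6 mice, in 2 biological replicates of 2 libraries each. The sources used here do not say which mice entered which replicate or how many mice were pooled in a library, so the spread between replicates or libraries may be partly technical.

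The table held 3002 cells, the number that the series text gives for the cells its authors extracted as myeloid on macrophage and dendritic cell markers. The authors had divided them into 14 clusters, numbered 0 to 13. Total counts of unique molecular identifiers (UMIs, each standing for 1 captured RNA molecule) per library ran from 1698585 to 5954716, and the median cell had 4512.5 UMIs. Clusters 3, 8 and 10 were shallow, with medians of 834, 980 and 805 UMIs per cell. No cell barcode was shared between libraries. The macrophage-like clusters 0, 1, 2, 3, 8 and 13 had summed macrophage markers of 26064 to 35411 CPM (UMIs of the genes per 1000000 UMIs of the cells summed), against 2307 to 6585 CPM in the dendritic-like clusters 4, 11 and 12. Cluster 5 had the highest sum of the 12 monocyte markers, 4524 CPM, close to the 4467 CPM of cluster 13, and is called monocyte-like. Cluster 7 had neutrophil markers at 25303 ± 14874 CPM (SD over 2 biological replicates), and is called neutrophil-like. Clusters 6 and 10 are given by number only.

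Collagens are secreted trimers of the extracellular matrix. Fibrillar chains (types I, III and V) build tensile fibres, type IV chains build basement membranes, type VI chains build beaded microfibrils around cells, and the FACIT chains, such as Col14a1, sit on the surface of fibrils. Small leucine-rich proteoglycans (Dcn, Lum, Bgn) bind collagen fibrils and regulate their assembly, and fibrillin, fibulins and elastin form elastic fibres. In the artery wall these genes are chiefly products of smooth muscle cells and of adventitial fibroblasts, which are not leukocytes. Tgfbi and Vcan are also known as products of monocytes and macrophages.

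The stretches of DNA just before 3 of these genes are shown because the genes stand for the patterns described below: Col3a1 and Bgn had most of their UMIs in cluster 9, and Vcan had its highest level in cluster 5. Each window holds the 250 bases before the RefSeq start in GRCm38.p6 and overlaps no exon of GENCODE M21. The windows are chr1:45311288-45311537 on the plus strand for Col3a1, chrX:73483351-73483600 on the plus strand for Bgn and chr13:89742513-89742762 on the minus strand for Vcan, each written 5′ to 3′ on the strand of its gene. Capitals mark a TATAAA or a CCAAT (written ATTGG where it lies on the other strand).
Col3a1: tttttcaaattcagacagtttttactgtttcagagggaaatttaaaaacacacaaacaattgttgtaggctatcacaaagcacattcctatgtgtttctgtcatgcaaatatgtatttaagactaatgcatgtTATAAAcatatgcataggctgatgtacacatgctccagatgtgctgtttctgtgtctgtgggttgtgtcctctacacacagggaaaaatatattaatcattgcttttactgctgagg
Bgn: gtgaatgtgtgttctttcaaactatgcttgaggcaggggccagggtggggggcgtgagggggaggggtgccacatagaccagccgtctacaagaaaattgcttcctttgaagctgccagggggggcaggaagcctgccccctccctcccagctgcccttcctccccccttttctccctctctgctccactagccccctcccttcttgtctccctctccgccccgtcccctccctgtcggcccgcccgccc
Vcan: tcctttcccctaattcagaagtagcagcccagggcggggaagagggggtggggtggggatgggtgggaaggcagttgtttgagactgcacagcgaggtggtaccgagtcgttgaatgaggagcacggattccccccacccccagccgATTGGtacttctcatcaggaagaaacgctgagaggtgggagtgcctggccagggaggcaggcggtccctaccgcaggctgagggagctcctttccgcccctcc
The TATAAA of Col3a1 lies 117 to 112 bases before the start, the ATTGG of Vcan lies 103 to 99 bases before it, and the Bgn window holds neither motif on either strand. Of the 57 genes, 43 had a window in the RefSeq table, with 47 windows in all. A CCAAT on either strand was found in 14 of these 47 windows (29.8%), against 33.8% of 32851 windows of all genes. A TATAAA on either strand was found in 5 of the 47 windows (10.6%), against 12.4% of all windows. The windows of these genes held either motif at about the share of all genes, and a match is a description of letters and not a binding site.

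Of the 57 genes, 47 had at least 1 UMI. The 10 at 0 were all collagen chains: Col6a4, Col6a5, Col9a1, Col9a2, Col10a1, Col13a1, Col22a1, Col24a1, Col25a1 and Col28a1. A count of 0 in 2909 cells outside cluster 9 allows a share of cells with a UMI of up to 0.127% (upper end of the exact 95% binomial interval). At least 100 UMIs were found for 19 genes, 20 to 99 for 12 genes and 1 to 19 for 16 genes. Among the detected genes, 36 had their highest mean level in cluster 9 and 11 in another cluster, and the share over all genes is not given here. Those 11 were Tgfbi, Vcan, Col27a1 and 8 chains with 15 UMIs or fewer: Col2a1, Col7a1, Col9a3, Col11a2, Col17a1, Col19a1, Col20a1 and Col26a1. Col8a1, Col8a2 and Col11a1 had all of their UMIs in cluster 9, but only 5, 3 and 4 UMIs in all. Col7a1, Col9a3, Col17a1, Col19a1 and Col26a1, with 6 UMIs or fewer, had none there.

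Cluster 9 was small, with 93 cells (37 in replicate 1 and 56 in replicate 2; 8, 29, 26 and 30 in libraries 1-1, 1-2, 2-1 and 2-2). It held 3.098% of the cells and 4.93% of the UMIs. It held 28556 UMIs of the 56 genes other than Tgfbi, against 4458 UMIs in the other 13 clusters, so that 86.5% of these transcripts lay in it. Tgfbi is left out of this sum, a choice made after its values were seen, because it alone had 11003 UMIs spread over nearly all clusters. In cluster 9 the 56 genes summed to 44915 CPM in replicate 1 and 30214 CPM in replicate 2, against cluster means of 134 CPM (cluster 11) to 931 CPM (cluster 10) elsewhere. With Tgfbi, the sum was 38597 ± 10438 CPM in cluster 9 (SD, n = 2) and 246 to 1950 CPM in the other clusters. Because clusters were drawn from the same counts, cluster 9 against the rest is a description and no test was made of it.

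The markers of cluster 9 were checked with lists of other cell types. The 12 fibroblast markers summed to 10984 ± 1738 CPM in cluster 9 (SD, n = 2), against 46.6 to 446 CPM in the other clusters, and 10 of the 12 were at least 10-fold higher in cluster 9 in both replicates. The exceptions were Ly6a, and Tcf21 with 1 UMI. Over all detected genes, 4.42% passed that fold. Gsn, which encodes the actin-severing protein gelsolin, made up 7382 CPM of that sum. The same cells held leukocyte transcripts. The 10 pan-leukocyte markers summed to 5166 ± 40.9 CPM in cluster 9, against 3923 to 12913 CPM in the other clusters. Of those, only cluster 12 was lower than cluster 9. The 10 macrophage markers summed to 12392 ± 254 CPM, against 2307 to 35411 CPM, and only the dendritic-like clusters 4, 11 and 12 were lower. Ptprc, the gene of the sorted CD45, was found in 59 of the 93 cells, and Lyz2, the lysozyme of macrophages, in 82. Of the 93 cells, 91 had at least 10 UMIs of the 56 genes. Of these 91, 82 also had at least 10 pan-leukocyte UMIs, 76 had at least 10 macrophage UMIs and 3 had no pan-leukocyte UMI. The median cell of cluster 9 had 8212 UMIs, against 4462 UMIs outside it. The sources used here do not give the authors' treatment of doublets (droplets with 2 cells). No doublet caller was run. The part of doublets, of free RNA or of cells that make both kinds of transcript was not tested.

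**Figure D1:**
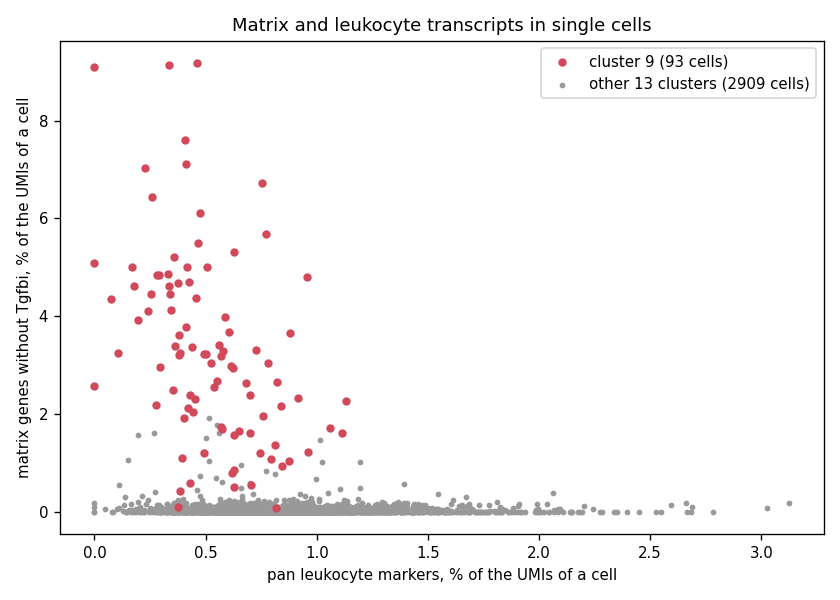
Each point is 1 cell: the horizontal axis gives the 10 pan-leukocyte markers and the vertical axis the 56 matrix genes other than Tgfbi, each as a percentage of the UMIs of the cell. The 93 cells of cluster 9 spread upward to 9.18% at leukocyte shares that overlap those of the 2909 other cells, none of which reached the cluster 9 median of 3.22%.

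Fibrillar collagens made up the largest collagen share of cluster 9. The 11 fibrillar chains summed to 4288 ± 1287 CPM there (SD, n = 2), against 6.99 to 166 CPM in the other clusters. Both chains of type I collagen, the main tensile collagen of the artery wall, were abundant. Col1a2, the alpha 2 chain, had 2092 and 1379 CPM in the 2 replicates of cluster 9. In the macrophage-like clusters it had 9.01 and 9.18 CPM in cluster 0, 8.33 and 6.74 in cluster 1, 13.3 and 13.2 in cluster 2, 24.4 and 28.3 in cluster 3, 0 and 13.7 in cluster 8, with 7.37 and 0 in cluster 13. In the dendritic-like clusters it had 9.24 and 3.38 CPM in cluster 4, 10.2 and 0 in cluster 11, with 11.99 and 0 in cluster 12. Both replicates of cluster 9 thus lay far above these clusters. Among them, cluster 3 lay above the rest in both replicates. Among the remaining clusters Col1a2 had 14.7 and 5.54 CPM in cluster 5, 22.1 and 5.17 in cluster 6, 19.2 and 0 in cluster 7, with 47.7 and 203 in the shallow cluster 10, where it rested on 9 UMIs in all.

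Col1a1, the alpha 1 chain of type I, had 1661 and 1024 CPM in cluster 9, against means of 10.6 and 6.67 CPM over the other 13 clusters. That is 156- and 153-fold in the 2 replicates. Col3a1, the chain of type III collagen, which is found with type I in vessel walls, had 1255 and 787 CPM in cluster 9, against 7.36 and 6.98 CPM over the others. Of the 93 cells of cluster 9, 82 had Col1a1, 81 had Col1a2 and 78 had both. With shares this high, most cells with 1 chain must also have the other, so the overlap is only a description. Outside cluster 9, Col1a2 was found in 117 of 2909 cells (4.02%), Col1a1 in 85 (2.92%) and Col3a1 in 75 (2.58%). The minor fibrillar chains of type V, which nucleate fibrils, were lower: Col5a2 had 91.8 ± 10.7 CPM and Col5a1 61.4 ± 10.3 CPM in cluster 9 (SD, n = 2).

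**Figure D2:**
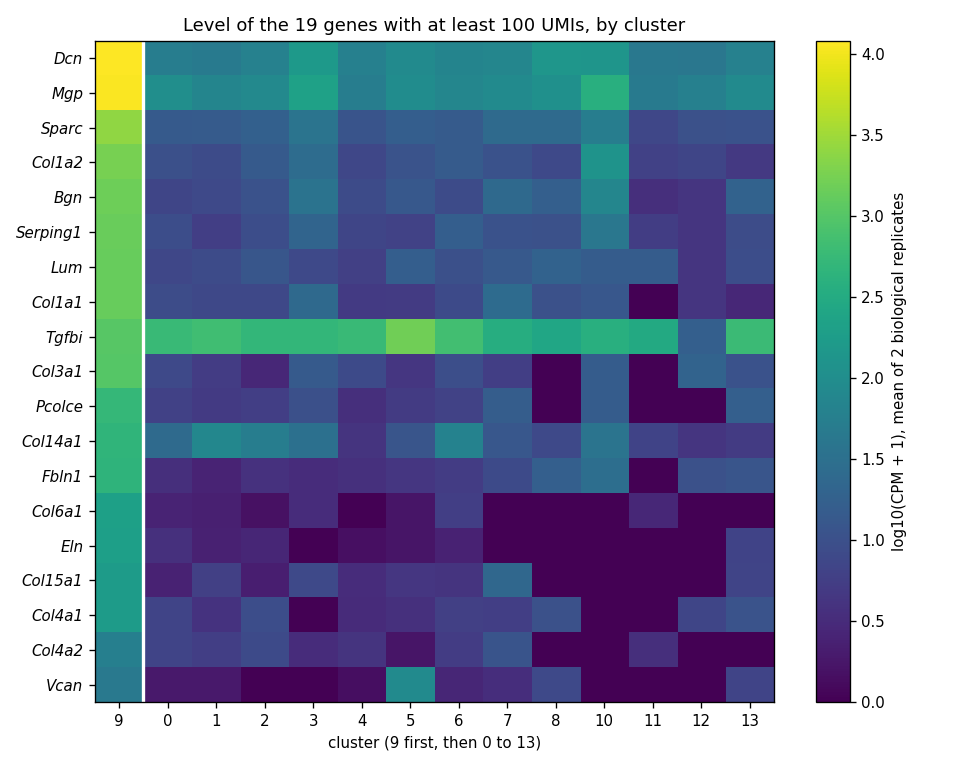
The heat map gives log10(CPM + 1), the mean of 2 biological replicates, for the 19 genes with at least 100 UMIs (rows) in each cluster (columns, cluster 9 first). Cluster 9 is the brightest column for all of these genes but Tgfbi and Vcan, which are brightest in cluster 5.

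The 3 small leucine-rich proteoglycans summed to 14884 ± 1492 CPM in cluster 9 (SD, n = 2) and to 46.6 to 219 CPM in the other clusters. Dcn (decorin, on chromosome 10, 97479609 to 97518143, plus strand, in GENCODE M21) had 12827 and 11239 CPM in cluster 9. In the macrophage-like clusters it had 45.0 and 59.7 CPM in cluster 0, 46.4 and 45.8 in cluster 1, 51.8 and 68.3 in cluster 2, 138 and 169.7 in cluster 3, 127 and 150.2 in cluster 8, with 66.3 and 57.5 in cluster 13. The dendritic-like clusters had 62.8 and 55.7 CPM in cluster 4, 35.9 and 48.6 in cluster 11, with 60.0 and 19.9 in cluster 12. The highest macrophage-like values belonged to the shallow clusters 3 and 8, and clusters 0 and 1 overlapped the dendritic-like ones. Dcn had 140.5 and 38.8 CPM in cluster 5, 104 and 31.0 in cluster 6, 115 and 33.6 in cluster 7, with 119 and 145 in cluster 10. Cluster 9 exceeded the mean of the other clusters 149.9-fold in replicate 1 and 158-fold in replicate 2.

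Bgn (biglycan, on chromosome X, 73483602 to 73495933) had 1691 and 1345 CPM in cluster 9. It had 3.28 and 9.18 CPM in cluster 0, 8.33 and 5.39 in cluster 1, 7.97 and 11.02 in cluster 2, 40.7 and 28.3 in cluster 3, 18.2 and 13.7 in cluster 8, with 36.8 and 0 in cluster 13. It had 9.24 and 5.91 CPM in cluster 4, 5.12 and 0 in cluster 11, 0 and 6.64 in cluster 12, 17.4 and 6.92 in cluster 5, 11.6 and 3.45 in cluster 6, 14.4 and 33.6 in cluster 7, with 0 and 145 in cluster 10. Only cluster 10 in replicate 2 passed 100 CPM, with 5 UMIs over 2 cells. Lum (lumican) had 1421 and 1243 CPM in cluster 9, against 10.6 and 9.93 CPM over the other clusters. Dcn was found in 89 cells of cluster 9 (95.7%, exact 95% interval 89.4 to 98.8%) and in 544 of the 2909 other cells (18.7%).

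The remaining matrix proteins outside the collagens followed the same pattern, apart from Tgfbi and Vcan. Mgp, the matrix Gla protein that inhibits arterial calcification (chromosome 6, 136872435 to 136875823, minus strand), had 15385 and 7496 CPM in cluster 9. Its macrophage-like values were 83.5 and 119 CPM in cluster 0, 87.5 and 53.3 in cluster 1, 81.0 and 81.6 in cluster 2, 244 and 179 in cluster 3, 127 and 95.6 in cluster 8, with 73.7 and 107 in cluster 13. Its dendritic-like values were 55.5 and 51.5 CPM in cluster 4, 71.7 and 22.4 in cluster 11, with 72.0 and 46.5 in cluster 12. Cluster 9 differed between replicates by more than for Dcn, with 12494, 16230, 5273 and 9122 CPM in libraries 1-1, 1-2, 2-1 and 2-2. Mgp had 154 and 34.6 CPM in cluster 5, 98.99 and 49.96 in cluster 6, 120.1 and 55.9 in cluster 7, with 309.8 and 435 in cluster 10.

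Sparc, which encodes the collagen-binding protein osteonectin (chromosome 11, 55394500 to 55423183, minus strand), had 3503 and 1611 CPM in cluster 9. Its macrophage-like values were 13.9 and 12.2 CPM in cluster 0, 14.3 and 13.5 in cluster 1, 18.6 and 15.4 in cluster 2, 24.4 and 47.1 in cluster 3, 36.4 and 13.7 in cluster 8, with 11.05 and 8.22 in cluster 13. It had 7.39 and 13.5 CPM in cluster 4, 5.12 and 7.48 in cluster 11, 11.99 and 6.64 in cluster 12, 24.1 and 6.92 in cluster 5, 20.96 and 6.89 in cluster 6, 38.4 and 11.2 in cluster 7, with 47.7 and 58.0 in cluster 10. Every cluster other than 9 stayed under 60 CPM in both replicates. Serping1, the inhibitor of complement C1, had 1413 ± 32.4 CPM in cluster 9 (SD, n = 2). Pcolce, which enhances the trimming of procollagen ends, had 518 ± 33.6 CPM there.

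Elastic fibre genes summed to 823 ± 274 CPM in cluster 9 (SD, n = 2) and to 0 to 29.0 CPM in the other clusters. Fbln1 (fibulin 1) had 446 ± 123 CPM, Fbn1 (fibrillin 1, the scaffold of elastic fibres) 94.8 ± 14.9 CPM and Fbln2 83.5 ± 64.9 CPM. Eln, elastin itself, had 199 ± 71.6 CPM but rested on few cells: 32 of the 93 cells had it, and 98 of its 150 UMIs came from 5 cells. Per library it had 39.9, 311, 57.7 and 215 CPM in libraries 1-1, 1-2, 2-1 and 2-2, so that the 2 libraries of each replicate lay further apart than the replicates did.

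Collagen VI summed to 454 ± 128 CPM in cluster 9 (SD, n = 2) and to 9.10 CPM or less elsewhere, led by Col6a1 (205 ± 51.1 CPM), Col6a2 (114 ± 35.2 CPM) and Col6a3 (112 ± 36.8 CPM). Basement membrane collagen IV summed to 433 ± 98.4 CPM in cluster 9 and to 16.6 CPM or less elsewhere. All 6 of its chains were found in cluster 9. Col4a1 had 172 ± 20.7 CPM and Col4a2, its partner in the common trimer, 56.9 ± 30.3 CPM. Col4a5 had 68.6 ± 9.32, Col4a4 52.3 ± 23.9, Col4a6 49.96 ± 1.70 and Col4a3 33.3 ± 12.6 CPM. Col4a2 was the 1 chain of the 6 below 10-fold in a replicate, at 30.1- and 9.34-fold, and 63 of its 105 UMIs lay outside cluster 9. The starts of Col4a1 and Col4a2 lie 21 bases apart on opposite strands, but the reads of the 3' method come from the far ends of the genes. Col15a1, a collagen associated with basement membranes, had 173 ± 19.1 CPM in cluster 9.

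At least 10-fold higher in cluster 9 than in the mean of the other 13 clusters, in both replicates, were 31 of the 47 detected genes. Over all 16087 detected genes the share past that fold was 4.42%. Among the 19 genes with at least 100 UMIs it was 16, all but Col4a2, Vcan and Tgfbi, against 1.81% of 8461 genes at that depth. Where the mean of the other clusters was under the level of 3 counts over all outside cells of a replicate, including at 0, the fold was taken against that level and is a floored value. Dcn and Col1a1 had over 90% of their UMIs in cluster 9 (90.7% and 90.5%), and 13 others of the 19 had 50 to 90%. Under 50% were Col4a2 (40.0%), Col14a1 (39.7%), Vcan (18.3%) and Tgfbi (7.32%). The 12 genes with 20 to 99 UMIs had 7.78 to 95.1% of them in cluster 9 and at most 67 positive cells outside it. The 16 genes with 1 to 19 UMIs had at most 14 positive cells outside.

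**Figure D3:**
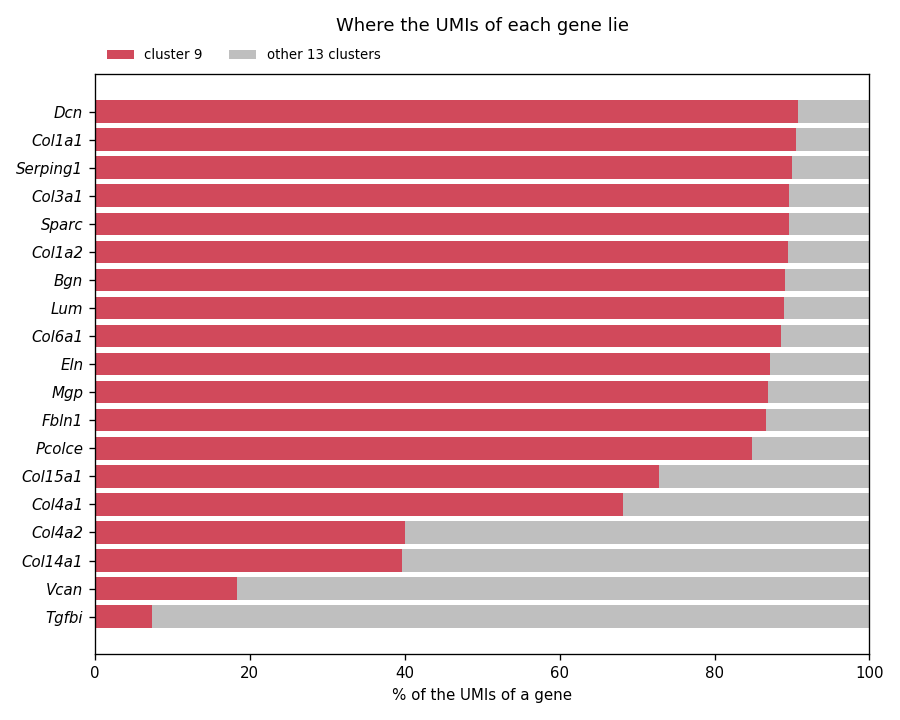
Bars give, for each of the 19 genes with at least 100 UMIs, the percentage of its UMIs in cluster 9 and in the other 13 clusters. Dcn and Col1a1 are above 90% in cluster 9, and Col4a2, Col14a1, Vcan and Tgfbi are under 50%.

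Genes that act on collagen, receive it or lie beside it were read from 4 further lists. Of 25 detected genes for collagen processing, 10 were at least 10-fold higher in cluster 9 in both replicates, against 4.42% of all detected genes. They included Serpinh1, the collagen chaperone HSP47, with 1300.2 and 749 CPM in cluster 9 against 10.8 and 11.5 CPM over the others, Pcolce2, Adamts2 and Loxl1. Pcolce2, a procollagen enhancer, had 313 and 239 CPM in cluster 9, Adamts2, which removes the amino end of procollagen, 301 and 186 CPM, and Loxl1, a cross-linker of elastic fibres, 153 and 166 CPM. The more general folding enzymes Ppib and P4hb did not pass that fold: Ppib had 951 and 782 CPM in cluster 9, against 477 and 502 CPM over the others, and P4hb had 226 and 231 CPM, against 115 CPM in each replicate.

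Of 12 collagen receptors, 4 passed 10-fold: Ddr2, a receptor tyrosine kinase for fibrillar collagen (66.2 and 75.4 CPM in cluster 9), Mrc2, which takes up collagen fragments (51.2 and 46.5 CPM), and the integrin chains Itga1 and Itga11. Of 32 detected genes of other matrix, 24 passed, among them Ogn, Mfap5, Smoc2 and Mfap4. Ogn, another leucine-rich proteoglycan, had 533 and 594 CPM in cluster 9, Mfap5, a microfibril protein, 454 and 445.5 CPM, Smoc2 424 and 439 CPM, and Mfap4 485 and 366 CPM. Fn1 (fibronectin) did not, with 153 and 222 CPM in cluster 9 against 339 and 320 CPM over the others. Over all 16087 detected genes, 4.42% passed that fold. Of 15 detected genes around TGF beta signalling, 5 passed. They were Ctgf (707 and 567 CPM in cluster 9), Ltbp3 (90.3 and 77.6 CPM), Tgfbr3, Bmp4 and Tgfb2.

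Outside cluster 9, single transcripts of the 56 genes other than Tgfbi were found in most cells. Of 2909 cells, 1709 (58.7%) had at least 1 such UMI, 856 had exactly 1 and 853 had 2 or more. The share depended on depth: with each cell thinned to 500 UMIs it was 14.3% as the mean of the 2 replicates. Dcn illustrates the spread over cell types. It was found in 18.6% of the cells of cluster 1 (median 5115 UMIs), in 20.7% of those of cluster 4 (median 7192.5 UMIs) and in 15.2% of the neutrophil-like cells of cluster 7 (exact 95% interval 9.41 to 22.7%), which had a median of 1601 UMIs and are not a known source of decorin. Mgp was found in 16.8% of the cells of cluster 7 and in 675 of the 2909 cells (23.2%). Thinned to 500 UMIs per cell, Dcn was found in 3.31, 2.03 and 3.17% of the cells of clusters 0, 1 and 2 and in 3.26% of cluster 4, at or below the 4.0% of cluster 7, so no expression is read from them. The shallow clusters 3 and 8 had 9.23 and 6.67%.

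A few cells outside cluster 9 held many of these UMIs. There were 32 cells with at least 10 such UMIs, and they held 1153 of the 4458 UMIs (25.9%), with 163 in the richest cell. They were spread over 11 clusters: 6 in cluster 0, 5 in cluster 4, 4 each in clusters 1 and 5, 3 each in clusters 2 and 3, 2 each in clusters 6 and 13, and 1 each in clusters 7, 10 and 11. None reached the median share of cluster 9, 3.22% of the UMIs of a cell. Without these 32 cells, an alternative added after seeing the data, the level of the 56 genes over all cells outside cluster 9 was 222 CPM as the mean of the 2 replicates, against 295.8 CPM with them.

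The ratio between genes was set side by side for pairs chosen after their values were seen. Of Col3a1 and Col1a2 UMIs together, Col3a1 gave 37.0% in cluster 9 and 36.6% outside it (exact 95% interval 30.6 to 43.0%). Col1a1 made up 43.5% of Col1a1 and Col1a2 UMIs in cluster 9 and 40.8% outside it (34.7 to 47.0%). Against Dcn, Sparc made up 16.8% in cluster 9 and 18.7% outside it, Lum 9.97% and 11.8%, Bgn 11.1% and 13.0%, and Serping1 10.6% and 11.4%. These pooled shares lay within 3 percentage points of each other, but single libraries did not always. Sparc gave 21.4, 21.5, 12.7 and 12.4% in cluster 9 and 16.4, 19.3, 18.6 and 18.9% outside it in libraries 1-1, 1-2, 2-1 and 2-2, so the direction differed between the replicates. In library 1-1, Col1a1 gave 50% in cluster 9 and 32.0% outside it, on 25 UMIs outside. Other pairs differed more when pooled. Mgp made up 47.6% of Mgp and Dcn UMIs in cluster 9 (46.9 to 48.4%) and 57.3% outside it (55.2 to 59.3%), but library 1-2 had 56.6% in cluster 9 and 50.7% outside it, the other direction. Col4a2 made up 24.0% of Col4a1 and Col4a2 UMIs in cluster 9 (17.9 to 31.0%) and 50.4% outside it (41.3 to 59.5%), on 175 and 125 UMIs. The intervals cover counting error only.

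**Figure D4:**
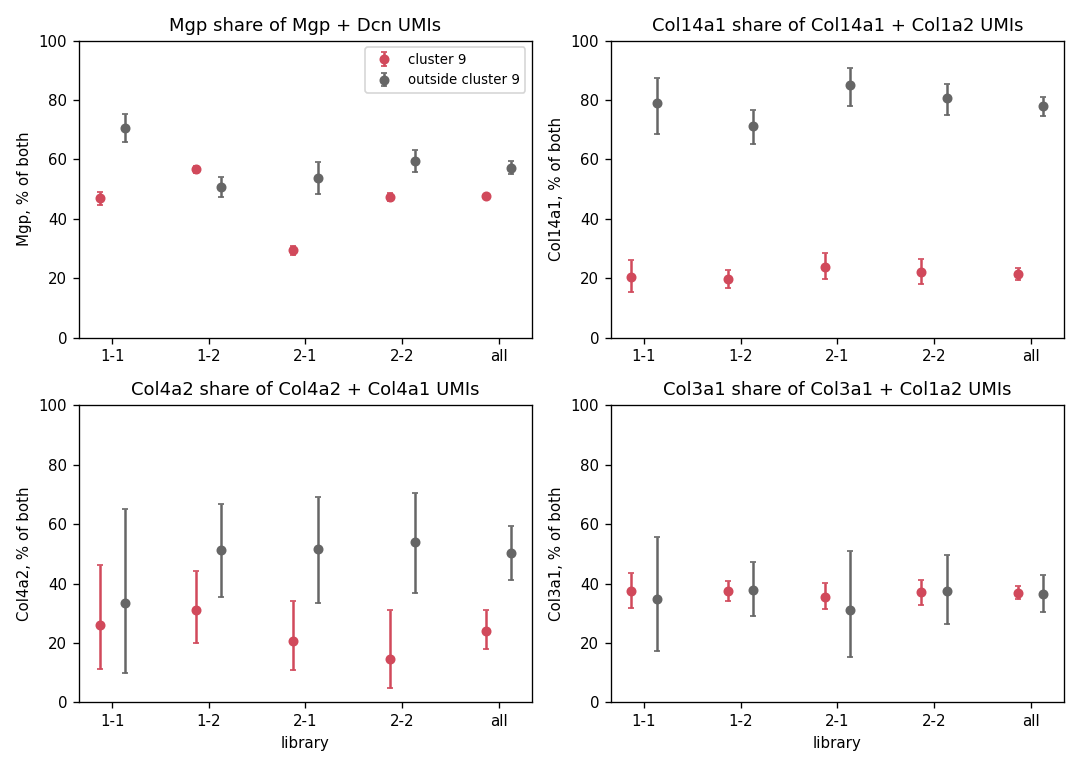
Each panel gives the share of 1 gene in the summed UMIs of a pair, in cluster 9 and outside it, for each library and over all (points; bars are exact 95% binomial intervals for counting error). Col14a1 lies near 20% in cluster 9 and above 70% outside it in all 4 libraries, while Col3a1 overlaps.

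Col14a1, a FACIT chain that tethers fibrils, was the collagen with most UMIs outside cluster 9, 541 of 897, in 375 cells (12.9%). It had 515 and 410.0 CPM in cluster 9. In the macrophage-like clusters it had 25.4 and 24.5 CPM in cluster 0, 66.7 and 85.6 in cluster 1, 35.9 and 68.3 in cluster 2, 48.8 and 14.1 in cluster 3, 0 and 13.7 in cluster 8, with 0 and 8.22 in cluster 13. In the dendritic-like clusters it had 3.70 and 2.53 CPM in cluster 4, 0 and 11.2 in cluster 11, with 0 and 6.64 in cluster 12. Clusters 0, 1, 2 and 3 lay above all dendritic-like values in both replicates, and clusters 8 and 13 overlapped them. Cluster 6 had 51.2 and 75.8 CPM, cluster 5 had 12.04 and 9.69 CPM, cluster 7 had 24.0 and 0 CPM and cluster 10 had 71.5 and 0 CPM, the last on 3 UMIs.

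Cells with Col14a1 were common in clusters 1 and 6. In cluster 1 they were 155 of 543 cells (28.5%, exact 95% interval 24.8 to 32.5%), and in cluster 6 they were 34.1% (26.1 to 42.7%), against 2.54% of the deeper cells of cluster 4 (1.03 to 5.16%) and 4.0% of the neutrophil-like cluster 7. After thinning to 500 UMIs the shares were 3.13% in cluster 1 and 2.96% in cluster 6, against 0.362% in cluster 4 and 1.6% in cluster 7, so the gap to cluster 7 was smaller at equal depth. Of Col14a1 and Col1a2 UMIs together, Col14a1 gave 21.3% in cluster 9, against 77.8% over all cells outside it and 90.9% in cluster 1. Within libraries 1-1, 1-2, 2-1 and 2-2 the shares in cluster 9 were 20.3, 19.6, 23.9 and 22.0%, and those outside it were 79.0, 71.1, 85.1 and 80.5%. The libraries did not overlap between cells inside and outside cluster 9. Per library, cluster 1 had 68.0, 66.2, 68.5 and 99.3 CPM.

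Tgfbi and Vcan were highest in the monocyte-like cluster 5. Tgfbi, an extracellular protein induced by TGF beta that links collagen and integrins (chromosome 13, 56609523 to 56639562, plus strand), had 1641 and 1500.3 CPM in cluster 5, with 1708, 1612, 1572 and 1441 CPM in the 4 libraries. It had 1062 and 1002 CPM in cluster 9. The macrophage-like clusters had 539 and 635 CPM in cluster 0, 650.4 and 700.5 in cluster 1, 478 and 517 in cluster 2, 578 and 443 in cluster 3, 400.4 and 123 in cluster 8, with 464 and 731 in cluster 13. Cluster 5 lay above all of them in both replicates. The dendritic-like clusters were uneven: cluster 4 had 544 and 631 CPM, cluster 11 had 369 and 228 CPM, and cluster 12 had 11.99 and 19.9 CPM. The cluster 12 cells, which had the highest dendritic markers, held Tgfbi in 4 of 44 cells, against 201 of 209 cells in cluster 5. Tgfbi had 691 and 713 CPM in cluster 6, 336 and 358 in cluster 7, with 405 and 348 in cluster 10.

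Vcan encodes versican, a large chondroitin sulfate proteoglycan of the vessel wall (chromosome 13, 89655312 to 89742509, minus strand). It had 109.7 and 65.0 CPM in cluster 5 and 60.2 and 26.6 CPM in cluster 9. Per library, cluster 5 had 91.0, 118, 82.9 and 50.4 CPM. Both replicates of cluster 5 lay above all values of the other clusters, of which cluster 9 came closest. Elsewhere Vcan had 0.819 and 1.02 CPM in cluster 0, 1.79 and 0 in cluster 1, 0 and 13.7 in cluster 8 (1 UMI), 3.68 and 8.22 in cluster 13, 0 and 0.844 in cluster 4, 3.49 and 0 in cluster 6, with 4.80 and 0 in cluster 7. Clusters 2, 3, 10, 11 and 12 had no UMI of Vcan. It was found in 42 of 209 cells of cluster 5 (20.1%) and in 18 of 93 cells of cluster 9 (19.4%). Vcan is itself 1 of the 12 markers behind the name monocyte-like, so its level in cluster 5 is not independent of that name.

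**Figure D5:**
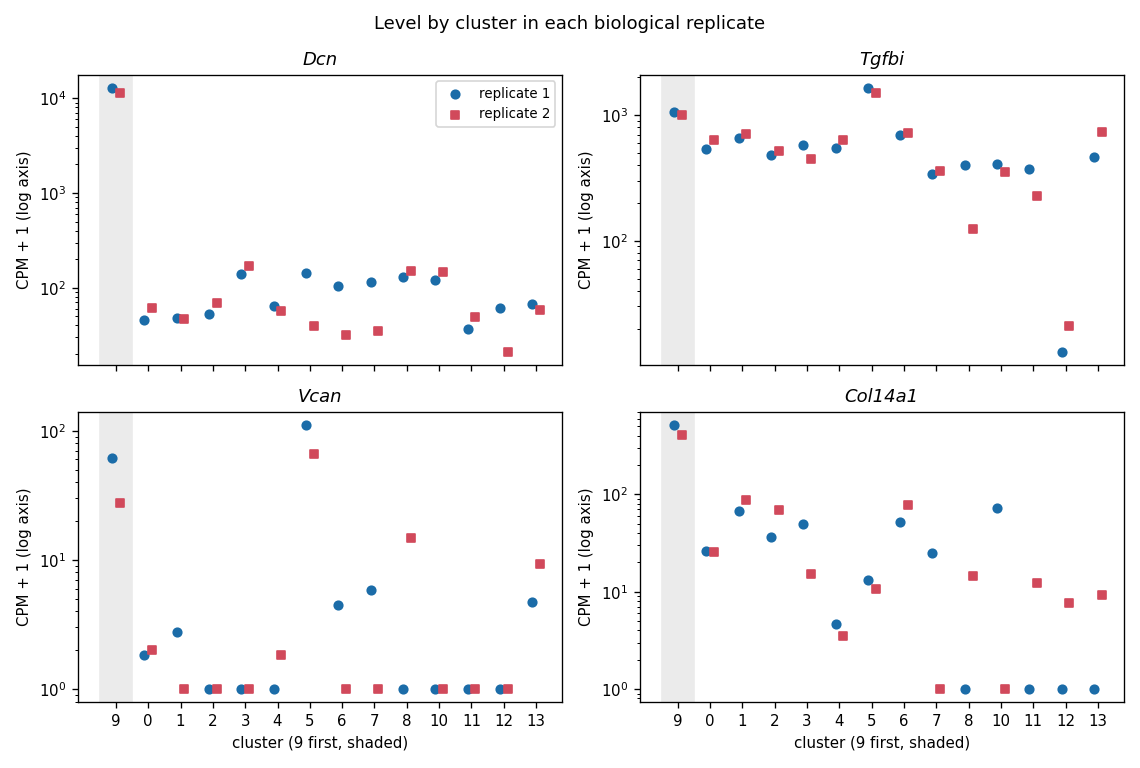
Each panel gives CPM + 1 on a log axis for 1 gene in every cluster, cluster 9 first and shaded, with 1 point per biological replicate. Dcn stands at 12827 and 11239 CPM in cluster 9 and at 169.7 CPM or less elsewhere, Tgfbi and Vcan are highest in cluster 5, and Col14a1 is above 50 CPM in both replicates of clusters 1 and 6 as well as of cluster 9.

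Macrophage-like against dendritic-like clusters were tested with edgeR's quasi-likelihood test on counts summed per cluster and biological replicate, with replicate as a block and Benjamini-Hochberg adjustment over all genes tested. The fit averages log levels over clusters, and because clusters were drawn from the same counts its p-values are too small. Of the 57 genes, 5 passed the filter on low counts. Among these, 4 were higher in macrophage-like clusters and none lower at an adjusted p under 0.05, against 14.5% higher and 23.6% lower (38.1% in either direction) among 5090 genes tested. Col14a1, 1 of the 4, passed the filter chiefly through the macrophage-like clusters, so its call is no support. The filter keeps abundant genes, so these 5 do not stand for the whole set. Their median log2 difference was 1.01, against -0.14 over all genes tested.

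Tgfbi averaged 522 ± 4.71 CPM over macrophage-like clusters and 301 ± 10.8 CPM over dendritic-like ones (SD, n = 2), with a log2 difference of 1.78 (SE 0.21, adjusted p = 6.48e-08, edgeR). This difference leans on cluster 12, since cluster 4 overlapped the macrophage-like clusters. Over pooled cells the levels of Tgfbi were closer, 595 CPM and 497 CPM. No fit without cluster 12 was run. Col14a1 averaged 32.6 ± 4.45 CPM against 4.02 ± 3.94 CPM, with a log2 difference of 2.14 (SE 0.78). The dendritic-like side rested on 11 UMIs, so the gene passed the filter chiefly through the macrophage-like clusters, where it is high. Its p is therefore not given. The call was lost without library 2-1 and without library 2-2, when a cluster had no UMI left. Mgp averaged 111 ± 7.25 CPM against 53.3 ± 18.6 CPM (log2 difference 1.01, SE 0.23, adjusted p = 0.000657, edgeR). Under the 12 alternatives its log2 difference was 0.71 to 1.16. The shallow cluster 3 had the highest macrophage-like values of Mgp. The neutrophil-like cluster 7 lay within the range of the macrophage-like clusters in both replicates, so no expression of Mgp by macrophages is read from this. Dcn averaged 85.5 ± 8.95 CPM against 47.2 ± 8.12 CPM (log2 difference 0.81, SE 0.20, adjusted p = 0.00193, edgeR). For Dcn the difference fell to 0.31 without the shallow clusters 3 and 8 (adjusted p = 0.304), and without library 2-2 its adjusted p was 0.0503. The thinned shares of cells with Dcn in clusters 0, 1 and 2 were at or below that of the neutrophil-like cells, as given above. Col27a1 also passed the filter but had no UMI in 3 of the clusters compared, and its fit gave no usable error.

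Monocyte-like cluster 5 against the macrophage-like clusters was tested in the same way. Of the 57 genes, 11 passed the filter, 2 were higher in cluster 5 and none was lower, against 19.8% higher and 4.48% lower (24.3% in either direction) among 7158 genes tested. The 2 were Tgfbi and Vcan. The call of Vcan was fixed by the filter, as given below, so only that of Tgfbi is read. The 11 genes had a median log2 difference of 0.00, against 0.29 over all genes tested. Tgfbi averaged 1571 ± 99.7 CPM in cluster 5 and 522 ± 4.71 CPM in the macrophage-like clusters (log2 difference 1.68, SE 0.14, adjusted p = 1.12e-12, edgeR). It was called under all 12 alternatives run, with log2 differences of 1.45 to 1.87. Vcan averaged 87.4 ± 31.6 CPM on 129 UMIs in cluster 5 and 2.43 ± 1.96 CPM on 9 UMIs in the macrophage-like clusters. It passed the filter on low counts through cluster 5, where it is high, so its call was fixed by that and its p is not given. Its fitted fold change depends on the prior count because 2 macrophage-like clusters had no UMI, and is not given.

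The 9 other genes tested were not called: Lum, Dcn, Col1a2, Bgn, Mgp, Sparc, Col14a1, Col1a1 and Col27a1. Dcn had a log2 difference of 0.20 (adjusted p = 0.583) and Mgp of -0.16 (adjusted p = 0.717). Both depended on a few cells. Without the 32 cells rich in matrix UMIs, Dcn was lower in cluster 5 by a log2 difference of -1.05 (adjusted p = 0.00108, edgeR) and Mgp by -1.26 (adjusted p = 0.000292, edgeR). Cluster 5 had 4 of these cells, and 44 of its 133 Dcn UMIs and 70 of its 140 Mgp UMIs came from 1 cell each. Col14a1 had 10.9 ± 1.66 CPM in cluster 5 and 32.6 ± 4.45 CPM in the macrophage-like clusters, a log2 difference of -0.84 that was not called (adjusted p = 0.34, edgeR).

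The lists around collagen gave further differences in the same fits. Over all genes tested, 14.5% were higher in macrophage-like clusters and 23.6% lower (38.1% in either direction). Counts from lists of 3 to 8 tested genes are therefore not read as results about the lists. Of 6 collagen processing genes tested between macrophage-like and dendritic-like clusters, 3 were higher (Plod1, Plod3 and P4ha1, which hydroxylate lysine or proline in collagen) and 1 was lower (Ppib, log2 difference -0.33, adjusted p = 0.0124, edgeR). Of 5 receptors, 2 were higher: Cd36, a scavenger receptor (log2 difference 1.54, SE 0.24), and Lair1, an inhibitory collagen receptor of leukocytes (1.07, SE 0.28). All 3 genes of other matrix tested were higher, among them Fn1 (519 ± 10.1 CPM against 28.2 ± 7.39 CPM, log2 difference 2.05, SE 0.44) and Ecm1 (log2 difference 3.36, SE 0.33). The macrophage-like mean of Fn1 was carried by cluster 13, while cluster 0 had 36.0 and 22.9 CPM, close to the dendritic-like mean. The fitted difference of Fn1 is below the ratio of these means because the fit averages logs over clusters of unequal level. Thbs1, which encodes thrombospondin 1, had 150.2 ± 0.304 CPM against 20.01 ± 0.456 CPM (adjusted p = 0.0411, edgeR), with 2 dendritic-like clusters at 0. Of 8 TGF beta genes, 3 were higher (Tgfb1, Tgfbr1 and Tgfbr2, the last by 1.55, SE 0.23) and 3 were lower (Smad4, Smad7 and Skil, Smad7 by -2.30, SE 0.29). For Skil the fit gave -1.04 and the cluster means were close, 353 CPM against 368 CPM, but the levels over pooled cells were 554 CPM against 350.2 CPM, the other way. Tgfb1 was likewise higher by cluster means, 154 CPM against 121 CPM, but not over pooled cells, 170.1 CPM against 176 CPM. The direction of both thus depends on how clusters are averaged.

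In cluster 5 against macrophage-like clusters, all 3 of those other-matrix genes were again called higher, out of 5 tested. Over all genes tested, 19.8% were higher in cluster 5 and 4.48% lower. The 2 comparisons share the macrophage-like clusters. For Ecm1 the replicates differed in direction, with 188.6 and 78.9 CPM in cluster 5 against 129.5 and 106.6 CPM in the macrophage-like clusters. Thbs1 had 2066 ± 549.6 CPM in cluster 5 and 150.2 ± 0.304 CPM in the macrophage-like clusters (log2 difference 5.69, SE 0.25). This fitted difference exceeds the ratio of these means, and the SD is between replicates and not between clusters. Fn1 had 632 ± 131 CPM in cluster 5 and 519 ± 10.1 CPM in the macrophage-like clusters. The macrophage-like mean of Fn1 was carried by cluster 13, at 2696 and 2786 CPM, above cluster 5, while cluster 0 had 36.0 and 22.9 CPM and cluster 1 had 256 and 214 CPM. Fn1, like Vcan, is 1 of the 12 monocyte markers. Its fitted log2 difference, 2.71 (SE 0.22), exceeds the ratio of these means because the fit averages logs over clusters of unequal level. Of 7 processing genes 2 were higher (P4hb and Plod3) and 1 was lower (Plod1), and of 5 receptors 1 was lower (Cd36, log2 difference -1.32, SE 0.25). Of 9 TGF beta genes 4 were higher and 1 was lower. Tgfb1 had a log2 difference of 1.18 (SE 0.15) and Smad7 of 2.01 (SE 0.29), Smad4 and Skil were the others, and Tgfbr2 was lower (-0.72, SE 0.20). The cluster means of Smad7, 77.5 CPM in cluster 5 and 30.9 CPM in the macrophage-like clusters, give a smaller ratio than the fit. Smad4 was close over pooled cells, 58.5 CPM and 54.2 CPM, and 1 macrophage-like cluster had no UMI of it. For Skil the direction depended on how clusters were averaged: the fit gave 1.06, the cluster means were 372 CPM in cluster 5 and 353 CPM in the macrophage-like clusters, and the pooled levels were 372 CPM and 554 CPM, the other way.

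Col27a1, a minor fibrillar chain, was singled out after its values were seen. It had its highest level in the dendritic-like cluster 12, with 60.0 and 39.9 CPM there, against 6.02 and 11.1 CPM in cluster 9. It was found in 8 of the 44 cells of cluster 12 with 11 UMIs, of which 4 lay in 1 cell. All 9 of its UMIs in cluster 5 came from 1 cell.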

How the data were processed

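Raw UMI counts per gene and cell were deposited by the authors as a count table, made with Cell Ranger 3.0.2 on mm10, per the submitters' processing notes, which also name Seurat 3.1.1. For cell filters, doublet handling and clustering, settings were not given in the sources used here. Clusters and libraries came from the authors' metadata table, which also gives the percent of mitochondrial UMIs, deposited by the authors and not used here. The authors also deposited natural log values, ln(1 + 10000 × count / total), which were checked against the counts and not tested.

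Counts were summed per cluster, biological replicate or library and divided by the total of all genes to give CPM. A UMI counts a molecule once at its 3' end, so levels were not divided by gene length. Depth per library is in the report. Intervals are exact binomial or Poisson at 95% and cover counting error only. In folds of cluster 9, a mean of the other clusters below 3 counts over all outside UMIs of a replicate was set to that level.

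Fits used edgeR 4.0.16 in R 4.3.3 (filterByExpr, TMM, glmQLFit, glmQLFTest) with cluster terms and biological replicate as a block, over clusters with at least 10 cells per replicate, called at adjusted p under 0.05 (Benjamini-Hochberg over all genes tested, two-sided). Clusters of a replicate share their animals, hence the block. The script was tested on simulated data. Alternatives were RLE scaling, DESeq2 1.42.0, no filter, no replicate block, sums per library, without clusters 3 and 8, without the 5% deepest cells, leaving out each library, thinning to 500 or 2000 UMIs (scipy 1.17.1, numpy 2.4.6, pandas 2.3.3, Python 3.11.15) and, added after seeing the data, leaving out cells rich in these genes.

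Values are given for members with at least 100 UMIs, by cluster for the 5 with most UMIs in cluster 9, those highest outside it at 50 CPM or more, and those called in a test. From each list of related genes up to 6 were named by level. The members, lists, classes of clusters and tests were chosen with earlier results of these data known. Figures used matplotlib 3.10.9.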

Additional observations from a re-analysis of the deposited data

Results flagged for a closer look

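Among 40 sets of 4 library levels examined, 2 had 1 library far from the other 3 by Dixon's criterion, and chance alone gives about 1 in 20. Col15a1 in cluster 9 had 306 CPM in library 1-1, against 152 to 168 CPM in the other 3 libraries; library 1-1 had 8 cells in cluster 9 and 23 UMIs of Col15a1. Lum outside cluster 9 had 6.33 CPM in library 2-1, against 8.81 to 9.30 CPM in the other 3, on 22 UMIs.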

How the results depend on the processing

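Of 326 values recomputed under an alternative, 282 counted as unchanged. For the fold change of a single gene, this meant the same call. For a count of genes called, it meant an equal count or one within a set ratio. For the other values, it meant a move of less than the spread between replicates. Of 161 fold changes of single genes, 152 kept their call, 4 lost it, 4 gained it and 1 reversed. The fit with no replicate block changed no call, and Tgfbi kept both of its calls under every alternative run. Macrophage-like against dendritic-like clusters gave 2 to 4 genes higher when each library was left out in turn, with 2 without library 2-2, where Dcn and Col14a1 were lost. In cluster 5 against macrophage-like clusters the number lower was 0 to 1 when each library was left out (Mgp at -0.96, adjusted p = 0.00219 in edgeR, without library 1-1), 1 without the 5% deepest cells (Mgp at -1.04) and 2 without the cells rich in matrix UMIs, where Mgp had -1.26 and Dcn reversed to -1.05, against 0.20 with all cells. Without clusters 3 and 8, Dcn there was 0.68 (adjusted p = 0.0463, edgeR). The cause was not tested.

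Outside cluster 9 the 56 genes other than Tgfbi averaged 295.8 CPM. This was 222 CPM without the rich cells, 389 CPM with cells thinned to 500 UMIs, 386 CPM as a mean over cells, and 272 to 329 CPM when each library was left out. The percentage of cells outside cluster 9 with such a UMI, 58.8% as a mean of replicates, was 57.5% without the deepest cells, 58.3% without the rich cells, 57.0 to 65.1% when each library was left out, 35.1% at 2000 UMIs per cell, 14.3% at 500 UMIs and 29.3% at a minimum of 2 UMIs. With Tgfbi included it was 85.1%, 84.6 to 87.0% when each library was left out, 74.2% at 2000 UMIs, 34.8% at 500 UMIs and 68.4% at a minimum of 2 UMIs. Depth limits these shares by construction, since fewer UMIs per cell leave fewer cells with 1.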

Other observations

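Markers of other wall cells were uneven in cluster 9. Among the smooth muscle markers, Acta2 had 108 and 75.4 CPM and Tagln 108 and 26.6 CPM in the 2 replicates. But Myh11, the smooth muscle myosin, had 1 UMI and Myocd, its master regulator, had none. The list summed to 378 ± 48.6 CPM (SD, n = 2), against 55.9 to 843 CPM in the other clusters, the highest in cluster 12. Its largest part was Cnn2, with 116 CPM in cluster 9 and 59.7, 84.8 and 101 CPM in clusters 0, 1 and 5. The 2 cells of cluster 9 with under 10 UMIs of the matrix genes other than Tgfbi both had at least 10 UMIs of the smooth muscle markers other than Cnn2. Of the pericyte markers, Abcc9 had 153 and 133 CPM and Kcnj8 90.3 and 155 CPM, the subunits of a potassium channel, whereas Rgs5 and Higd1b were at 0. Comp, a cartilage matrix protein, had 69.2 and 180 CPM and Sox9 12.04 and 17.7 CPM, while Acan, Chad and Matn3 were at 0. The endothelial genes Cdh5, Tek, Cldn5, Emcn and Esam and all 5 mesothelial markers were at 0. The endothelial list still summed to 78.2 ± 8.48 CPM (SD, n = 2), against 0 to 68.8 CPM in the other clusters. Most of this was Eng, at 66.2 and 57.6 CPM, while Pecam1, Vwf, Kdr and Egfl7 had 8 UMIs or fewer each. Tcf21, a fibroblast transcription factor, had 1 UMI in 93 cells, although Pdgfra was found in 53.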
